A study of Homo sapiens with 6 samples.

Results

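The genes described here lie on the short arm of human chromosome 1 and start between 30 and 100 Mb (GRCh38). Of 1428 annotated genes in this stretch, 362 had a mean of at least 1 CPM (the depth-scaled count, here the raw count over the library total), and these are the members. Over the whole annotation 12839 of 61541 genes reached that level. The stretch was proposed from an earlier look at the same contrast, in which its genes were higher in one of the lines. Its shift is therefore given as a description, with no test, and nothing is supported with it. All 362 members passed the filter on low counts, 39 of them with a parental mean under 1 CPM and 3 with a mean under 1 CPM in the other line. The other 1066 genes of the stretch fell short of the threshold, and 797 of these had no count at all.

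The study compared 2 human breast cancer cell lines by bulk RNA-seq, with 3 libraries each. The parental line was MDA-MB-231, a triple-negative line with a mesenchymal character. The other line was MDA-MB-231-D3H2LN, written MDA231-LN below. It is a Perkin Elmer line derived from MDA-MB-231 that, as background, expresses luciferase and was isolated after it had spread to a mouse lymph node. Both lines grew in high-glucose DMEM with 10% FBS, neither carried a further treatment in the labels, and total RNA was sequenced as 150-base read pairs. Each group is a single cell line, so the contrast is between these lines and not between metastatic and non-metastatic cells in general. The labels do not say whether separate cultures were used for the 3 libraries, so p-values measure only the spread between them, which may be technical.

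A chromosome arm is not a pathway. Genes that lie side by side usually serve unrelated tasks and each has its own promoter, yet a run of neighbours can shift together between cell populations, and a gene under strong control of its own then stands out against its surroundings. The stretch holds many genes that nearly every cell uses, such as the RNA-binding protein gene YBX1 and the mitotic activator gene CDC20. It also holds genes with well-known parts in cancer cells, among them JUN, a subunit of the AP-1 transcription factor, and JAK1, a kinase of cytokine signalling. The libraries measure RNA only.

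RefSeq promoter sequences (GRCh38.p14) were at hand for 291 of the 362 members. They are printed for 5 members that were close to silent in one line, because these stand far from the regional shift, and they were picked from several such members after their values were seen. Each is the 250 bases before the annotated start, read 5′ to 3′ on the plus strand of chromosome 1, with CpG dinucleotides in capitals.
TIE1: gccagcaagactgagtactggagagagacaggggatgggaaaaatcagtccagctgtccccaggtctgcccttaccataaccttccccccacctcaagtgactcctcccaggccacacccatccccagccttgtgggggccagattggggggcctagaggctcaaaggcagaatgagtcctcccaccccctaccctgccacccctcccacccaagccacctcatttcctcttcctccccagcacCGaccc
GPX7: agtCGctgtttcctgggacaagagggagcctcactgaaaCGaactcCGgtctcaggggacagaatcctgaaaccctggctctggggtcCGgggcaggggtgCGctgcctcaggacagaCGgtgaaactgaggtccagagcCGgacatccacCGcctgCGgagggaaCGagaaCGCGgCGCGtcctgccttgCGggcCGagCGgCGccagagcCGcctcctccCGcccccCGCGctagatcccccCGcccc
DMBX1: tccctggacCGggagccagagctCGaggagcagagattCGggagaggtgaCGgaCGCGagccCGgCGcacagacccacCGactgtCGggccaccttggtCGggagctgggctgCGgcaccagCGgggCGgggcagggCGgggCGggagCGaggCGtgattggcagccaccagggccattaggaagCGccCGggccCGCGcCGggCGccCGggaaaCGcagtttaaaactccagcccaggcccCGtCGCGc
FAAH: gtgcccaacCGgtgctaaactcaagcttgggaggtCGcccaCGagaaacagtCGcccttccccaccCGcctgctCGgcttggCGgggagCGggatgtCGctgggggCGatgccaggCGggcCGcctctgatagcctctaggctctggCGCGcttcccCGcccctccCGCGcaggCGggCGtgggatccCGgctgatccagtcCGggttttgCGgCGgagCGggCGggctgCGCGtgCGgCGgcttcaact
ST6GALNAC3: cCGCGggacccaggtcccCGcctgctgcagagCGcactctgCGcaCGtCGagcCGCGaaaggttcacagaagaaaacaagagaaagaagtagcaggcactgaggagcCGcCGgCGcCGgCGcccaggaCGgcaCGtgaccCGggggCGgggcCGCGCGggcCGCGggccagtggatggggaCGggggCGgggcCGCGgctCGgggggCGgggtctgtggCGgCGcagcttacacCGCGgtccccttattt
The sequence of TIE1, the member close to silent in MDA231-LN, spans chr1:43300732-43300981 and holds 1 CpG, with 6.06% of the promoters in the table holding fewer. That of GPX7 spans chr1:52602121-52602370 and holds 23 CpG, and 74.2% of promoters hold fewer. The DMBX1 sequence (chr1:46489586-46489835) and the FAAH sequence (chr1:46394067-46394316) hold 29 CpG each, with 85.9% of promoters holding fewer. The ST6GALNAC3 sequence (chr1:76074496-76074745) holds 33, with 91.9% holding fewer. The last 4 genes were close to silent in the parental line, and their CpG counts lie above the median of 11 over all 35116 promoters of the table. The median over members was 21, however, so a count above 11 is usual for a member and that of GPX7 lies close to the member median. A link between CpG count and level was not tested.

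Over the 291 members with a sequence, the median promoter held 21 CpG, as did the median of 9478 genes at 1 CPM or more elsewhere in the genome. Both strands of the 250 bases were searched for 5 short motifs. The GC box GGGCGG was found in 69.1% of member promoters, against 67.9% of those expressed elsewhere and 42.6% of all promoters. The CCAAT box (CCAAT) was found in 35.4%, against 35.1% and 32.0%. The TATA box (TATAAA) was found in 4.81%, against 5.58% and 10.7%. The E-box CACGTG was found in 9.28%, against 8.71% and 6.34%. The AP-1 site TGANTCA was found in 4.12%, against 3.76% and 6.57%. None of the 5 motifs contains another, and a match is a description of the letters, not a bound site. On these measures member promoters lie near those of genes expressed elsewhere.

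Depth was similar throughout: parental libraries held 16461578 to 19171017 counted fragments and MDA231-LN libraries 17661542 to 18882719. The mesenchymal markers VIM and CD44 were abundant in both lines, with VIM at 1091 CPM in parental and 1993 CPM in MDA231-LN libraries on TMM-scaled library sizes, the scale of all CPM values from here on. The epithelial keratins KRT8 and KRT18 were also present, and EPCAM was low. The fibroblast genes LUM and DCN, the endothelial gene CDH5 and the leukocyte gene PTPRC were under 1 CPM in both lines. PECAM1, also an endothelial gene, was at 9.52 CPM in parental and 8.60 CPM in MDA231-LN libraries.

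Members were higher in MDA231-LN as a group. The median log2 fold change of the 362 members, MDA231-LN over parental, was 0.53, a 1.44-fold difference, with the middle 50% of members between 0.31 and 0.83. Over all 14176 genes tested the median was 0.02. The fitted value was positive for 322 of 362 members. In the edgeR quasi-likelihood test, at a Benjamini-Hochberg adjusted p under 0.05 over all genes tested, 278 members were higher and 19 lower in MDA231-LN, and 65 did not pass. Of all genes tested 31.6% were higher and 31.2% lower by the same call, 62.8% in either direction. Among genes at a mean of 1 CPM or more the shares were 31.5% and 33.6%. Since the stretch was chosen from this contrast, nothing is read from the comparison of these shares. A rise of at least 2-fold was found in 66 members, and a fall of at least 2-fold in 4. Over all 14176 genes tested these numbered 1848 and 1068, and over the 12839 at a mean of 1 CPM or more 1406 and 956. Of the 66 rises 45 were among the 91 members with the lowest levels, which can enter through the line where they are high. The 3 members without a parental count enter the median with a fitted value that depends on the prior count, and the median was also 0.53 with each placed at its lower bound.

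The shift was seen in each library. Against the parental mean of each gene, the median member stood at -0.01, 0.02 and -0.00 on the log2 scale in parental libraries 1 to 3. It stood at 0.53, 0.55 and 0.54 in MDA231-LN libraries 1 to 3, so the lines did not overlap. Members took 2.19%, 2.22% and 2.19% of all counted fragments in the parental libraries and 3.13%, 3.13% and 3.16% in the MDA231-LN libraries. Their summed level was 22707 ± 440 CPM (SD, n = 3) in parental and 30506 ± 246 CPM in MDA231-LN libraries, a ratio of 1.34. For 285 members every MDA231-LN library lay above every parental library, and for 17 every one lay below, where 33.8% and 32.8% of all genes tested did so, and 33.4% and 35.2% of those at a mean of 1 CPM or more. Upper-quartile scaling raised the median of all genes by 0.11, and relative to that median the members stood 0.51 higher under TMM, RLE and upper-quartile scaling. With DESeq2 the difference was 0.38 from the median of the 24158 genes it fitted without a filter, and 0.51 from that of the 14176 genes tested here. Among the 320 members that reached 1 CPM in both lines the median was 0.50, with 247 higher and 18 lower.

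**Figure D1:**
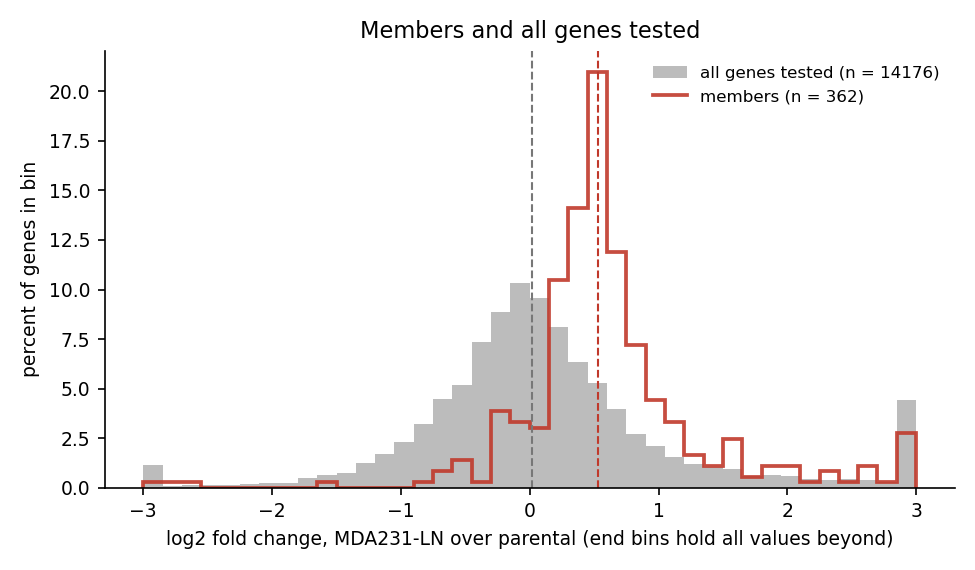
Log2 fold changes (x axis, MDA231-LN over parental) of the 362 members (red line) and of all 14176 genes tested (grey), each as percent of genes per bin (y axis). Dashed lines mark the medians, 0.53 for members and 0.02 for all genes, and the bulk of the members sits to the right of 0.

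The median was 0.52 for 325 protein-coding members, of which 80.9% were called higher, and 0.60 for 34 members of other biotypes, of which 44.1% were called higher. It was 0.52 on the plus strand and 0.54 on the minus strand. Over 4 groups of equal size by gene length it ran from 0.51 to 0.54. Over 4 groups by mean level it was 0.91, 0.51, 0.51 and 0.47 from the lowest levels to the highest. The 91 members with the lowest levels were also the most scattered, with the middle 50% between 0.37 and 1.84, and the threshold of 1 CPM on the mean lets a weakly expressed gene in through the line where it is high. YBX1, the most abundant member by mean level, was measured at 925, 993 and 836 CPM in the parental libraries and at 1558, 1621 and 1714 CPM in MDA231-LN. Its log2 fold change was 0.83 ± 0.06 (SE).

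Along the chromosome the shift was nearly level across the stretch. In 14 bins of 5 Mb the median log2 fold change lay between 0.28 and 0.83, and in 11 of the 14 it lay between 0.4 and 0.6. In all 14 bins the median of every MDA231-LN library was above that of every parental library. The highest value came from the bin that starts at 65 Mb, with 14 members including the kinase gene AK4, the leptin receptor gene LEPR and the phosphodiesterase gene PDE4B. The lowest came from the next bin, at 70 Mb, with 11 members. That bin holds CTH, which makes cysteine, at 12.9 CPM in parental and 12.6 CPM in MDA231-LN libraries, and CRYZ, a quinone reductase gene, with 38.7 and 39.0 CPM. It also holds the splicing factor gene SRSF11, which was higher by 0.28. The following bin, at 75 Mb, was back at 0.74. The bins with under 20 members are thinly filled, and their medians move with single genes.

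**Figure D2:**
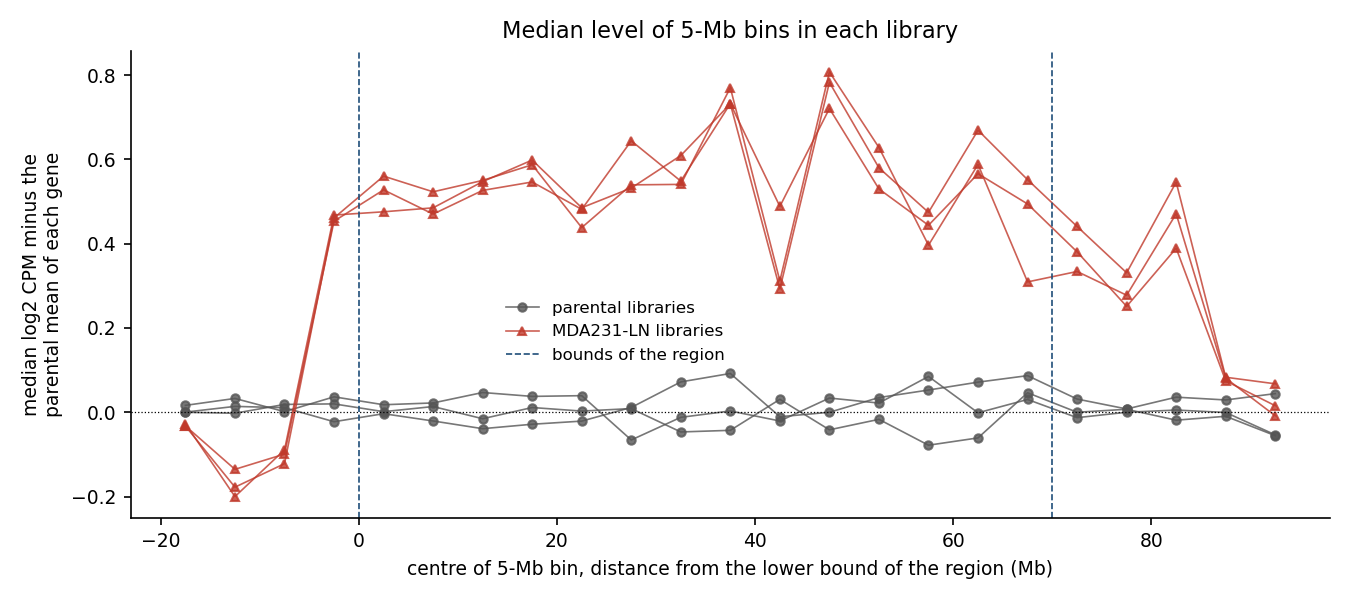
Median log2 CPM minus the parental mean of each gene (y axis) in 5-Mb bins, by distance of the bin centre from the lower bound of the stretch (x axis, Mb), with 1 line per library. Between the dashed bounds the 3 MDA231-LN libraries lie above the 3 parental libraries in all 14 bins, and both sets come close together in the last bins drawn, at 87.5 and 92.5 Mb.

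Set against the rest of the genome, the stretch was high but not alone. Of 273 windows of 10 Mb with at least 15 expressed genes, the 7 windows of the stretch had medians of 0.50 to 0.61 and ranked from 9 to 23. Another 16 windows reached the lowest of these values. The other 266 windows had a median of -0.00, with their middle 50% between -0.22 and 0.14.

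The bounds of 30 and 100 Mb were not where the shift ended. A least-squares segmentation of the fitted values over chromosome 1 placed the members in 1 segment of 496 genes, from a first start at 26.2 Mb to a last start at 116.9 Mb. It took in 51 genes below 30 Mb, with a median of 0.52, and 83 genes above 100 Mb, with a median of 0.43. Of its 496 genes 375 were higher and 26 lower in MDA231-LN. The segment before it had 238 genes and a median of -0.05. The segment after it had 23 genes and a median of -0.03, and it was followed, from 121.6 Mb across the centromere, by 228 genes with a median of -0.90. Inside the member stretch the segmentation placed no break.

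The left edge fell between PDIK1L and CNKSR1, at 26.1 Mb. On its outer side PAQR7, a progestin receptor gene, went from 12.1 ± 1.95 CPM in parental to 7.47 ± 1.39 CPM in MDA231-LN libraries. STMN1, which makes the microtubule regulator stathmin, was at 480 and 398 CPM, and PDIK1L at 16.8 and 12.3 CPM. All 3 passed as lower, while PAFAH2 (6.69 and 8.15 CPM) did not pass. On its inner side CNKSR1, a scaffold gene, was higher by 1.79 but from only 0.559 to 1.98 CPM. CEP85 followed with 63.3 and 58.6 CPM and SH3BGRL3 with 162 and 180 CPM, neither of which passed, and then UBXN11 with a rise of 0.41. The genes next to the edge were thus mixed, and the gene at which the shift begins was not resolved. With genes under a mean of 5 CPM left out, the break moved to just after SH3BGRL3, and an added break at 32.0 Mb parted 55 genes with a median of 0.58 from 327 genes with a median of 0.48.

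The right edge fell at 117.0 Mb, between PTGFRN and TTF2. PTGFRN, an immunoglobulin-family regulator of the prostaglandin F receptor, went from 19.3 ± 2.69 CPM in parental to 78.4 ± 3.04 CPM in MDA231-LN libraries. IGSF3, another immunoglobulin-family gene next to it, rose from 14.3 to 71.0 CPM. CD58, a ligand of T-cell CD2 just before them, was at 58.1 and 60.5 CPM and did not pass. Beyond the edge TTF2 was lower by 0.27, TRIM45 was at 7.75 and 5.89 CPM and MAN1A2 at 92.0 and 86.9 CPM without passing, and TENT5C was higher by 0.34. The genes next to this edge were thus mixed as well. Both edges stayed in place when each library was left out in turn. With MDA231-LN library 1 alone set against the parental mean, the right edge moved to 121.5 Mb.

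**Figure D3:**
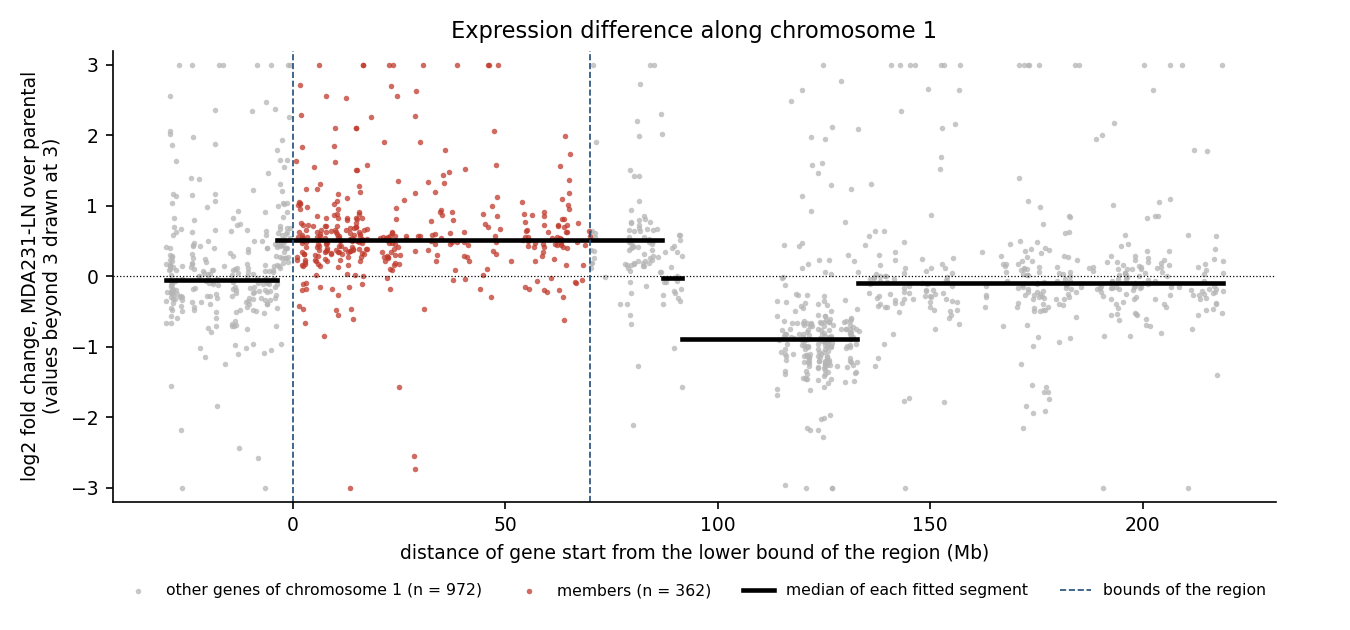
Log2 fold change of the 362 members (red) and of 972 other expressed genes of chromosome 1 (grey), by distance of the gene start from the lower bound of the stretch (x axis, Mb), with values beyond 3 drawn at 3. Black lines are the segment medians: the segment that holds the members, at 0.52, reaches past both dashed bounds and ends between segments at -0.05 and -0.03.

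Single genes were then compared with their surroundings. Each gene was tested in edgeR against the median log2 fold change of the other expressed genes within 5 Mb on either side, with adjustment over all 14068 genes so tested. Of the 362 members 86 lay above their neighbours and 92 below, and of all genes so tested 27.7% lay above and 25.7% below. The direction varied with level. Of the 91 members with the lowest levels 32 lay above and 9 below, and of the 91 with the highest levels 19 lay above and 40 below. The lowest can enter through the line where they are high, so these counts are not read as control of single genes. All 86 members above were also called higher between the lines, which follows largely from the positive neighbour medians of the stretch. Of the 92 below, 46 were still higher in MDA231-LN, 27 did not pass and 19 were lower. The 184 members that did not depart from their neighbours include 146 called higher. Within 0.25 of the neighbour median on the log2 scale lay 182 members (50.3%), against 40.9% of all genes tested and 43.6% of those at a mean of 1 CPM or more.

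JAK1 is an example of a member that moved with its surroundings. It was at 123, 111 and 128 CPM in the parental libraries and at 176, 181 and 171 CPM in MDA231-LN, with no overlap. Its rise of 0.54 differed from the neighbour median by -0.07 ± 0.06, which did not pass (edgeR adjusted p = 0.363). HDAC1, a histone deacetylase gene, rose by 0.53 and CDC20 by 0.61, and neither departed from its neighbours.

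Among members of at least 5 CPM, ADGRB2, an adhesion G protein-coupled receptor gene, stood farthest above its neighbours. It was at 3.84, 4.50 and 5.46 CPM in the parental libraries and at 30.6, 28.2 and 32.3 CPM in MDA231-LN, far apart. Its difference from the neighbour median was 2.19 ± 0.14 (SE, adjusted p = 3.44e-13). SPOCD1, the next gene on the same strand and known for its part in piRNA-directed DNA methylation in the germline, was at 7.5, 6.34 and 4.18 CPM in the parental libraries and at 30.7, 27.4 and 29.1 CPM in MDA231-LN. MYSM1, a histone H2A deubiquitinase gene, was at 15.5, 14.4 and 14.0 CPM in the parental libraries and at 72.6, 73.3 and 66.6 CPM in MDA231-LN. LAPTM5, a lysosomal membrane protein gene best known in blood cells, went from 63.9 ± 5.14 to 198 ± 6.40 CPM (SD, n = 3 each). PDE4B, which breaks down cyclic AMP, went from 8.68 ± 1.47 to 30.1 ± 0.838 CPM.

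The other 7 of the 12 named members above their neighbours were BTBD19, MFSD2A, ZSWIM5, DNAJC6, PATJ, LEPR and C1orf216. MFSD2A carries lysophospholipids, DNAJC6 is the clathrin-uncoating factor auxilin, PATJ is a cell polarity scaffold and LEPR is the leptin receptor. Their rises ran from 1.24 for C1orf216 to 2.10 for BTBD19. All 12 were picked for their distance from the neighbours and for libraries that do not overlap, so neither is a result about them.

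TIE1, an endothelial receptor tyrosine kinase gene, lay farthest below its neighbours. It was at 19.1, 24.6 and 19.6 CPM in the parental libraries and at 0, 0.0554 and 0.0514 CPM in MDA231-LN. The 1069 parental counts against 2 give a ratio of 599, with an exact 95% interval of 165 to 4953 that covers counting error only. Of the endothelial marker genes, PECAM1 was at 9.52 and 8.60 CPM in parental and MDA231-LN libraries, and CDH5 at 0 and 0.0541 CPM.

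PTPRF, a receptor tyrosine phosphatase gene and one of the more abundant members, was at 771, 736 and 770 CPM in the parental libraries and at 564, 562 and 519 CPM in MDA231-LN. It was lower by 0.47 ± 0.05, which put it 1.01 below its neighbours (adjusted p = 6.71e-15). SLC6A9, a glycine transporter gene, was at 36.1, 39.6 and 39.0 CPM in the parental libraries and at 25.5, 21.8 and 27.7 CPM in MDA231-LN. NFIA, a transcription factor gene, went from 22.9 ± 2.39 to 16.7 ± 0.665 CPM.

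Also among the 12 members farthest below their neighbours were MARCKSL1, PPT1, SERINC2, FNBP1L, EVI5 and LRRC8D. MARCKSL1 acts on the actin cortex, PPT1 is a lysosomal thioesterase, FNBP1L shapes membranes at the actin cortex and LRRC8D is a subunit of the volume-regulated anion channel. The falls of these 6 were small, from 0.48 for PPT1 to 0.20 for EVI5, while their neighbour medians were 0.51 to 0.55. LRRC8D has 97.1% of its span inside other genes. LRRC8D and EVI5 no longer passed as lower under upper-quartile scaling (adjusted p = 0.230 and 0.299) or without parental library 3 (0.0936 and 0.155). The same held for LRRC8D without MDA231-LN library 1 or 2 (0.0547 and 0.0865), and for EVI5 without library 1 or 3 (0.0720 and 0.0510).

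**Figure D4:**
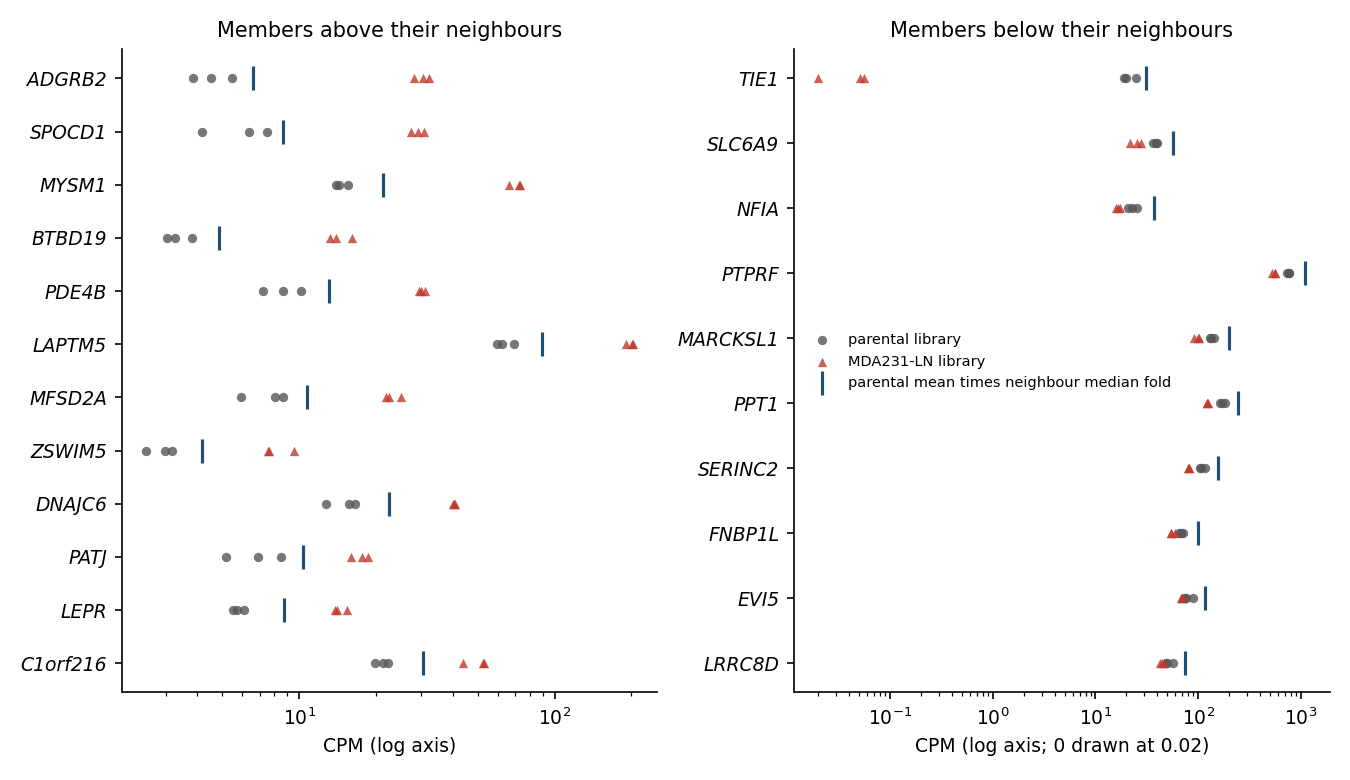
CPM in each library (x axis, log scale) of the 12 members farthest above (left) and of 10 of the 12 farthest below (right) their neighbours, with grey circles for parental and red triangles for MDA231-LN libraries. Blue ticks mark the parental mean multiplied by the fold change of the neighbours: MDA231-LN libraries lie to the right of the tick on the left side and to its left on the right side, with TIE1 at or near 0.

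Among the 19 members called lower were SERINC2, TMEM39B, MARCKSL1, SYNC, MACF1, PPT1, ZFP69B, EBNA1BP2, TIE1, PTPRF, SLC6A9, the lincRNA ENSG00000283445, NFIA, CCN1, LRRC8D, EVI5 and FNBP1L. All 19 also lay below their neighbours, which follows largely from the positive neighbour medians and is not a result about them. TIE1 and ENSG00000283445 were among the 4 lower by at least 2-fold. Under upper-quartile scaling 11 members were called lower. CCN1, the matricellular gene also called CYR61, was at 743, 806 and 695 CPM in the parental libraries and at 649, 647 and 692 CPM in MDA231-LN, so the groups did not overlap but lay close. Its fall of 0.17 ± 0.06 was small, and the call ended under upper-quartile scaling (adjusted p = 0.309) and without MDA231-LN library 2 (0.0561).

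Members next to each other departed in the same and in opposite directions. Of 361 pairs of members next to each other, both departed in 97, in the same direction in 58 and in opposite directions in 39. As 178 of the 362 members departed, many such pairs follow from that share. Pairs were not counted over all genes, so nothing is read from these counts. The run from MYSM1 to JUN, from 58.6 to 58.8 Mb, holds 3 members over 141 kb. MYSM1 was 4.85-fold higher. The lincRNA ENSG00000283445 between MYSM1 and JUN was 6.65-fold lower, and was at 27.8, 21.6 and 28.6 CPM in the parental libraries and at 4.61, 4.10 and 3.03 CPM in MDA231-LN. JUN, at the end of the run, rose from 203 ± 6.57 to 260 ± 5.98 CPM, a rise of 0.36 that lay 0.21 below its neighbours. That difference passed but was small, since the middle 50% of members differed from their neighbours by -0.23 to 0.29. Neither MYSM1 nor ENSG00000283445 shares any of its span with another gene.

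In other runs the departures shared a direction or were mixed. The runs, like that from MYSM1 to JUN, were picked with the values known and have departing members at their ends. Their counts of departures follow in part from that choice. From AK4 to PDE4B, starting at 65.1 to 65.8 Mb, all 4 members lay above their neighbours. AK4, a mitochondrial adenylate kinase gene, rose by 0.87, DNAJC6 by 1.43, LEPR by 1.32 and PDE4B by 1.79. JAK1, just before them, did not depart. From SDC3 to SPOCD1, starting at 30.9 to 31.8 Mb, 12 members include 5 above and 3 below their neighbours. There the matrix genes TINAGL1 and COL16A1 rose by 1.02 and 1.05, with ADGRB2 and SPOCD1 just beyond them, while SERINC2 in the same run was lower by 0.42. From TIE1 to SLC6A9, starting at 43.3 to 44.0 Mb, 4 of 12 members lay below their neighbours and 0 above. Between TIE1 and PTPRF, CDC20 and the fatty acid elongase gene ELOVL1 rose by 0.61 and 0.53, with the neighbours.

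Several members had counts in 1 line only, or nearly so. GPX7, which makes an endoplasmic reticulum peroxidase, had 0 counts over the 3 parental libraries and 163 in MDA231-LN, at 2.05, 3.49 and 3.08 CPM. Taken against a floor of 3 counts over the parental line, it was at least 48.5-fold higher. The lincRNA LINC01748 went from 0 to 193 counts, at least 57.4-fold higher on the same floor. ST6GALNAC3, a sialyltransferase gene, went from 0 to 111 counts, at least 33.0-fold higher. DMBX1, a homeobox gene, went from 1 to 184 counts, a ratio of 164 with an interval of 29.1 to 6519. The lincRNA ENSG00000285407 went from 1 to 137 counts, a ratio of 122 with an interval of 21.6 to 4863. Both intervals cover counting error only. All of these genes are members only through MDA231-LN, so their rise is not a result about them. No member had 0 counts in MDA231-LN, and TIE1 alone had 1 to 3 there. The stretch was chosen as higher in MDA231-LN, so nothing is read from this difference between the lines.

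FAAH, which breaks down the endocannabinoid anandamide, lies just before DMBX1, and both span 122 kb from 46.4 Mb. It was at 0.122, 0.254 and 0.375 CPM in the parental libraries and at 5.74, 5.71 and 6.53 CPM in MDA231-LN. The promoters of this pair, printed above, hold 29 CpG each, where the median member promoter held 21. Whether the pair shares any control was not tested. GLIS1, a zinc finger gene, was at 0.183, 0.127 and 0.214 CPM and then at 4.51, 4.71 and 6.12 CPM. COL8A2, a collagen gene, went from 0.237 to 4.75 CPM and PTGFR, the prostaglandin F receptor gene, from 0.120 to 2.78 CPM. MSH4, a meiotic recombination gene, went from 0.348 to 4.88 CPM. All of these stayed low in both lines, and with parental means under 1 CPM they are members only through MDA231-LN. In each the libraries did not overlap. They were named for their change between the lines, so this is not a result about them.

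By role, 183 members fell in 1 of 11 lists of genes of this stretch and 179 in none. The list counts are given against 76.8% of all members and 31.6% of all genes tested that were called higher. For calls of lower the shares were 5.25% and 31.2%. No test compared the lists with other members. All 16 members of the cell cycle and DNA repair list were higher in MDA231-LN, with a median of 0.53. CDC20 went from 275 to 419 CPM, the chromosomal passenger gene CDCA8 from 125 to 223 CPM, and the kinase gene CDC7 from 49.8 to 59.3 CPM, a rise of 0.25 that was the smallest of the list. All 14 members of the ubiquitin, proteasome and folding list were higher, with a median of 0.54. The proteasome subunit gene PSMB2 went from 196 to 303 CPM.

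Of 22 members that handle RNA, 21 were higher and AGO4, an Argonaute gene, did not pass (13.7 and 15.4 CPM). Their median was 0.45, and 10 of them lay below their neighbours and 4 above. Of all 362 members 92 lay below and 86 above, and of all genes so tested 25.7% and 27.7%. Among the 91 members with the highest levels 40 lay below and 19 above. Whether the list differs from members of like level was not tested. SFPQ, a nuclear RNA-binding protein gene, went from 535 to 627 CPM, a rise of 0.23. At the other end FUBP1 was at 61.2, 65.1 and 76.1 CPM in the parental libraries and at 142, 149 and 148 CPM in MDA231-LN, a rise of 1.12. PABPC4, a poly(A)-binding protein gene, rose from 192 to 389 CPM, with 54.8% of its span inside other genes.

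Of 16 members of the ribosome and translation list 14 were higher, EBNA1BP2, a ribosome assembly gene, was lower (252 and 226 CPM), and NSUN4 did not pass. The median was 0.55. The ribosomal protein gene RPL5 was listed at only 1.01 and 3.03 CPM with 92.7% of its span inside other genes, so its value rests on few reads. Of 20 members of energy, redox and nucleotide metabolism 17 were higher and 3 did not pass, with a median of 0.55. AKR1A1, an aldehyde reductase gene, went from 34.3 to 64.9 CPM and GCLM, a subunit of the enzyme that starts glutathione synthesis, from 73.9 to 129 CPM. AK5, a cytosolic adenylate kinase gene, rose from 1.51 to 6.26 CPM. SLC2A1, the glucose transporter GLUT1, rose by 0.34 and lay 0.19 below its neighbours.

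The matrix list held the most members called lower. Of all genes tested 31.2% were called lower, and of those at a mean of 1 CPM or more 33.6%. Of 13 members of matrix, adhesion and cytoskeleton 7 were higher, 5 lower (MARCKSL1, MACF1, CCN1 and FNBP1L among them) and 1 did not pass, with a median of 0.27. Of 22 receptors, kinases and signalling genes 16 were higher, TIE1 and PTPRF lower and 4 did not pass, with a median of 0.42. EPHA10, an ephrin receptor gene, went from 1.15 to 6.87 CPM. The coagulation starter gene F3, tissue factor, rose from 300 ± 12.4 to 395 ± 13.3 CPM, 0.15 less than its neighbours. The G protein gene GNG12 was at 304 and 293 CPM and did not pass. Whether these lists differ from the other members was not tested.

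Of 17 lipid and sterol genes 13 were higher, 2 lower (PPT1 among them), and CPT2 and ACADM, both of fatty acid oxidation, did not pass, with a median of 0.57. MFSD2A rose from 7.55 to 23.2 CPM. ACOT11, an acyl-CoA thioesterase gene, rose from 0.310 to 1.87 CPM. Of 30 chromatin and transcription genes 23 were higher, NFIA and ZFP69B lower and 5 did not pass, with a median of 0.36. Besides MYSM1 and GLIS1, the Notch target gene HEYL rose from 0.796 to 2.91 CPM. Of 9 membrane traffic and channel genes 6 were higher, LRRC8D and EVI5 lower and 1 did not pass. The dynein adaptor gene HOOK1 rose there from 1.92 to 7.25 CPM. Of the 5 interferon-inducible genes 4 were higher, among them GBP1 (20.4 to 25.9 CPM in parental and 36.8 to 39.0 CPM in MDA231-LN libraries), and GBP4 did not pass (0.961 and 1.72 CPM). GBP2, with 50.3% of its span inside other genes, rose from 10.8 to 20.3 CPM.

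**Figure D5:**
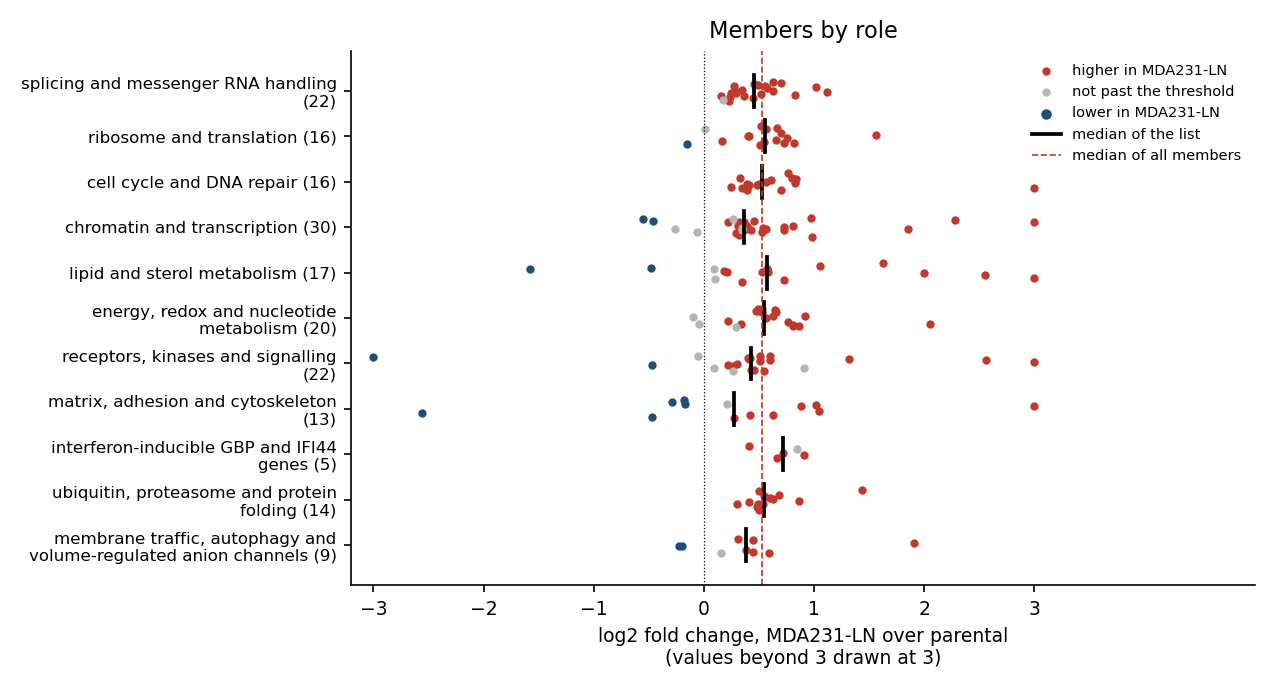
Log2 fold change (x axis, values beyond 3 drawn at 3) of the members of each of 11 lists by role (y axis, number of members in parentheses), colored by call, with the list median as a black bar. Most list medians lie near the dashed line of all members at 0.53, and the matrix list has the lowest, 0.27, with 5 members lower in MDA231-LN.

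Of the 34 members with other biotypes, 15 were higher and 1 was lower. FOXD2-AS1, a lincRNA gene, was at 2.07, 2.22 and 2.46 CPM in the parental libraries and at 7.38, 6.43 and 6.37 CPM in MDA231-LN. MIR137HG, the host gene of miR-137, was at 42.8 and 41.5 CPM and lay 0.61 below its neighbours. Counting ignored the strand, so reads of an antisense gene and its partner could not be told apart, and reads touching more than 1 gene were left out. More than 50% of the span lay inside another gene for 31 members, whose median was 0.51 against 0.53 for the other 331.

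At the limits of the rule the members ran on into genes outside it. Just inside the expression threshold were ST6GALNAC3 at 1.01 CPM and TTC4 at 1.02 CPM, and just outside LRRC8B at 0.977 CPM and ENSG00000285922 at 0.973 CPM. The last expressed genes below 30 Mb, MECR and PTPRU, had log2 fold changes of 0.68 and 3.16, and the first above it, LAPTM5 and SDC3, 1.63 and 0.27. Just below 100 Mb FRRS1 had 0.64, and the next genes above it, SASS6 and TRMT13, 0.37 and 0.52.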

How the data were processed

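Values are raw fragment counts for each gene as deposited. Per the file headers, the authors counted over whole gene bodies without strand, using featureCounts 2.0.1 and Ensembl release 105 (GRCh38). Reads touching more than 1 gene or aligning to more than 1 place were left out. STAR, whose version is not given in the sources used here, and DESeq2 are named in the submitters' processing notes. Libraries were grouped by cell line as labelled.

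All genes kept by filterByExpr (14176) were fitted with edgeR 4.0.16 (R 4.3.3; quasi-likelihood test, TMM, no covariate), with Benjamini-Hochberg adjustment. Departures were tested against the median of at least 10 neighbours, entered as an offset and taken as known. Segments held at least 15 genes, with values limited to 2 and a penalty of 3 log(n) times the noise variance. Alternatives were RLE and upper-quartile scaling, other filters on low counts, DESeq2 1.42.0, limma-voom (limma 3.58.1), a replicate block, other neighbour windows and segment settings, and each library left out in turn. The fit was tested on simulated data.

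The members, the lists and the tests were chosen with earlier results of these data known. Named were the 12 members farthest from their neighbours in each direction (protein coding, at least 5 CPM on average, libraries not overlapping), up to 4 members per list, the 4 genes on either side of each edge, the genes at the limits of the rule, and JUN, JAK1, CCN1, F3 and SLC2A1. Lists were read by adjusted p, taking members past a 2-fold change first and, where there were none, the leading 2. Some genes that these rules name are not reported here. Further genes were named after their values were seen. Symbols and biotypes came from the gene table and GENCODE 29, and promoters from RefSeq.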

Additional observations from a re-analysis of the deposited data

How the results depend on the processing

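The direction of the regional shift held in every setting run. Its median of 0.53 became 0.54 with RLE scaling, 0.64 with upper-quartile scaling, 0.54 with a filter of 1 CPM in 3 libraries, 0.50 over the 275 members at 5 CPM or more, and 0.51 to 0.54 with each library left out. Leaving out 1 library gave 263 to 275 members higher, 13 to 18 lower, 71 to 84 above and 76 to 92 below their neighbours, and edges at 26.1 and 117.0 Mb throughout. Members called lower numbered 11 with upper-quartile scaling and 12 at an adjusted p under 0.01. Over members at 5 CPM or more, 56 lay above their neighbours, where fewer members were counted, and the break nearest 30 Mb lay at 32.0 Mb. With the replicate number as a block, 274 members were higher, 17 lower, 79 above and 85 below, with a median of 0.53. Same-numbered libraries did not deviate together (correlations of -0.00394, 0.00241 and -0.0526). With 3 libraries in each line this cannot exclude a shared day or culture, and the labels do not say what the number marks. Over 59 named genes and 13 settings, 747 of 767 values kept their direction and call, 11 lost their call and 6 gained one, among them SH3BGRL3 in 4 settings, and CD58 with upper-quartile scaling. The other 3 changed sign near 0: MAN1A2 (0.0287) and CEP85 (0.00118) with upper-quartile scaling and CD58 (-0.00791 to 0.0961 with each library left out). UBXN11 lost its call without parental library 2 (adjusted p = 0.0622). The causes were not tested. Depth limits the members near 1 CPM, where fold changes were the most scattered.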

Other observations

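Among genes of the same stretch that stayed under a mean of 1 CPM, 39 had enough counts to be tested. Of these 16 were higher and 1 lower in MDA231-LN, with a median log2 fold change of 0.72. Of all genes tested 31.6% were higher and 31.2% lower. A weakly expressed gene can pass the filter on low counts through the line where it is high, so nothing is read from these values. They are not members and enter no count above.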
